A study of Mus musculus with 44 samples.

Results

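Vnn1, Tm4sf5, Plet1, Mal2 and Itga2 encode proteins that sit at the surface of epithelial cells or carry other proteins to it. They are 5 of the 31484 genes whose estimated counts were summed in mouse gastric corpus mucosa. They were chosen by their lower normalized counts in KO/NTZ than in KO/PEG mice. That difference is therefore given as a description without a test. The same holds for every comparison of a single KO group with a WT group, since these libraries took part in the choice. All 5 genes were among the 14901 left after low counts were removed. Where a test is given it is the quasi-likelihood test of edgeR, adjusted over all genes by the method of Benjamini and Hochberg, with a threshold of 0.05, and SE is the standard error on the log2 scale.

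RNA was sequenced from biopsies of the ventral corpus mucosa of mice on a BalbC background, all 13 months old. KO mice lacked the H+/K+ATPase beta subunit, the product of Atp4b that the parietal cell needs to secrete acid, and WT mice carried it. NTZ is netazepide, a gastrin receptor antagonist that the labels call yf, and PEG is its vehicle. The 20 WT libraries were 11 given PEG and 9 given NTZ, the 24 KO libraries 13 given PEG and 11 given NTZ, and both KO groups shared the deletion. In these bulk samples fewer cells of a type and less RNA per cell cannot be told apart.

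The polarized epithelium of the stomach keeps different proteins on its luminal surface and on the surface that faces the matrix. GPI-anchored enzymes are often sorted to the luminal side, and integrins bind the matrix on the other. Gastrin acts on the oxyntic mucosa through the CCK2 receptor, and a stomach without acid releases more gastrin.

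Vnn1 encodes vanin-1, a GPI-anchored pantetheinase that splits pantetheine into vitamin B5 and cysteamine. Its transcript (gene ENSMUSG00000037440) lies on the plus strand at chr10:23894688-23905343 of GRCm38. Plet1 (ENSMUSG00000032068, chr9:50494525-50505482, plus strand) encodes a GPI-anchored protein known from epithelial progenitors of the skin and thymus. Itga2 (ENSMUSG00000015533, chr13:114833081-114932100, minus strand) encodes the integrin alpha 2 subunit, which pairs with integrin beta 1 to bind collagen and laminin. Tm4sf5 (ENSMUSG00000018919, chr11:70505244-70511178, plus strand) encodes a four-span membrane protein of the L6 family. Mal2 (ENSMUSG00000024479, chr15:54571192-54602847, plus strand) encodes a four-span protein of the MAL family that takes part in moving proteins from the basolateral to the apical surface.

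RefSeq promoter windows of GRCm38.p6 were at hand for 3 of the 5 genes, namely Tm4sf5, Plet1 and Itga2. The 250 bases before the RefSeq start site are shown for Plet1 and Tm4sf5, which had different patterns over the groups, with matches to the searched letters in capitals.
Plet1, chr9:50494275-50494524, plus strand: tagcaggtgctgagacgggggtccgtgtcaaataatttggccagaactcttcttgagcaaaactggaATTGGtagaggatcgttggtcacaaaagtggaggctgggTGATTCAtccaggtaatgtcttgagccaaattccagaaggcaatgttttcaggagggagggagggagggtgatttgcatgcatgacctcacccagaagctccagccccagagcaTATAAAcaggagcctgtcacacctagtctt
Tm4sf5, chr11:70505024-70505273, plus strand: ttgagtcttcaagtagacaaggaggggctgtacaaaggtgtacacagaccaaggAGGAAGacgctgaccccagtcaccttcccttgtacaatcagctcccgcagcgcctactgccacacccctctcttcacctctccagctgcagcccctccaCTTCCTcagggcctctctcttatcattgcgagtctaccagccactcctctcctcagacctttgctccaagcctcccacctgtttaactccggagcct
Both strands were searched for TATAAA, the TATA box, for CCAAT, for GGGCGG, the GC box, and for AGGAAG, the core of ETS sites. They were also searched for TGANTCA, the AP-1 site, for TGACGTCA, the cAMP response element, for the GATA factor site (letters AGATAA), for the FOX site (letters TGTTTAC), for the CDX site (letters TTTATG) and for the HNF4 site (letters CAAAGTCCA). None of the matches shown overlap each other. The RefSeq start of Tm4sf5 lies downstream of the start of the counted transcript, so that the last 30 bases of its window belong to that transcript, and distances are from the RefSeq start. Plet1 held TATAAA 30 bases before the start, letters found in 12.4% of the 32851 windows of this length. It also held CCAAT on the other strand 183 bases before the start (33.8% of windows), and between these an AP-1 match, TGATTCA (6.75%). Tm4sf5 held the ETS core at 196 bases and, on the other strand, at 97 bases before the start (29.5%). The window of Itga2 (chr13:114932101-114932350, minus strand) held none of the 10 motifs, which says only that these letters are not in that window. The window of Itga2 had a GC content of 60.8%, that of Tm4sf5 56.4% and that of Plet1 50%, against a median of 52.4% over all windows.

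Libraries held between 6065084 and 21945124 estimated counts, so that the smallest signal taken as present, 3 counts, lay between 0.137 and 0.495 CPM (counts scaled by edgeR to a common library size) and covers counting error only. Atp4b, the targeted gene, averaged 3924 CPM in WT/PEG and 3613 CPM in WT/NTZ mice, and in KO mice 6.84 CPM with PEG and 12.6 CPM with NTZ. Markers of pit, chief and parietal cells were present in every library, and the intestinal factors Cdx1 and Cdx2 were at 0 in 9 and 10 of the 11 WT/PEG libraries and in 11 and 8 of the 13 KO/PEG libraries. The mitochondrial share of the counts was between 5.81% and 11.73% in WT/PEG and between 1.85% and 7.0% in KO/NTZ, and the KO/PEG libraries reached from 2.37% to 14.37%. One WT/NTZ library stood apart with a leukocyte marker sum of 2440 CPM, where the WT/NTZ median was 270. The labels carry an animal number that is 100 or above in all 11 WT/PEG libraries but in 4 of 9 with WT/NTZ, in 7 of 13 with KO/PEG and in 1 of 11 with KO/NTZ. What the number stands for is not given in the sources used here.

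The 5 genes fell into 2 patterns over the groups. Vnn1, Plet1 and Itga2 had their highest levels in KO/PEG and lay between KO/PEG and WT in KO/NTZ. Tm4sf5 and Mal2 lay near WT in KO/PEG and below WT in KO/NTZ. The lowering with NTZ was thus a step away from the WT level for Tm4sf5 and a step toward it for Vnn1, Plet1 and Itga2. For Mal2 it led from slightly above WT to below it. This place of Mal2 depended on the fit, since its average KO level was 0.26 above WT on the log2 scale with the mitochondrial share as a covariate. The plot of every library shows both patterns.

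**Figure D1:**
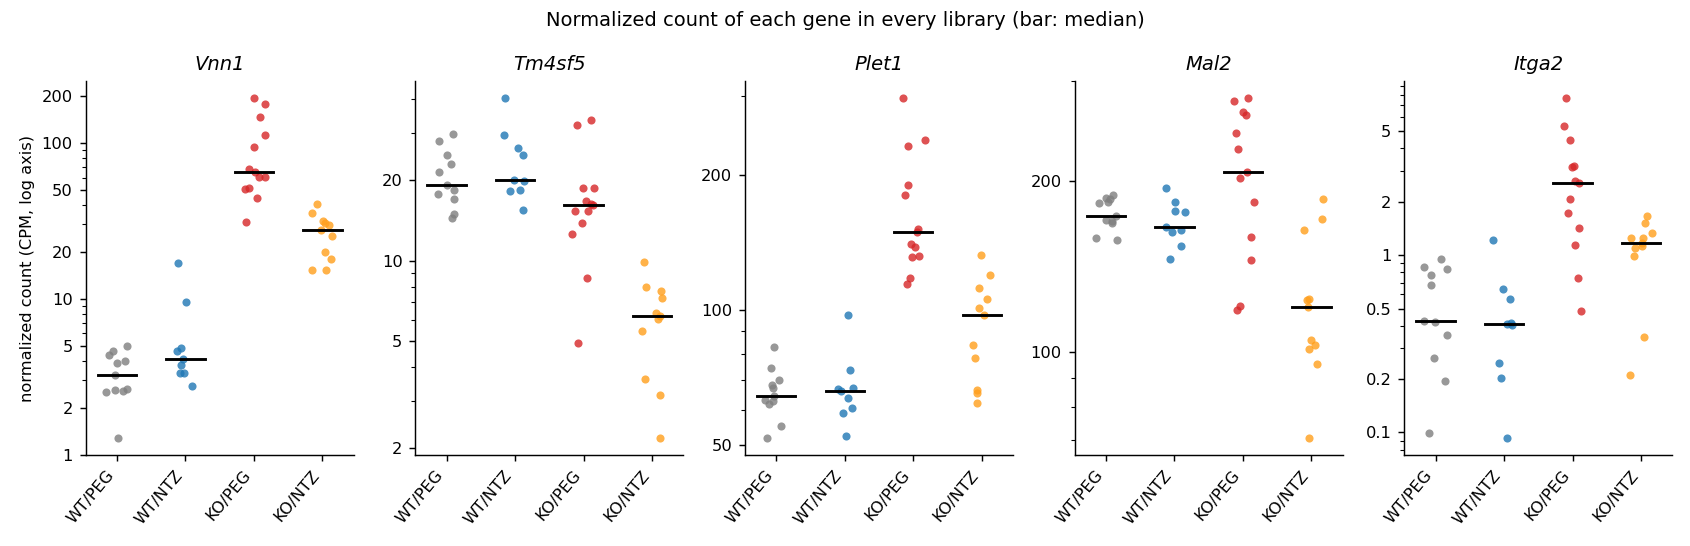
Normalized count (CPM, log axis) of each of the 5 genes in every library, by group, each point 1 library and each bar the group median. Vnn1 had a median of 3.26 CPM in WT/PEG, 65.4 in KO/PEG and 27.6 in KO/NTZ, while Tm4sf5 had 19.1, 16.2 and 6.22.

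Vnn1 covered the widest range. In WT/PEG its lowest, median and highest libraries had 1.28, 3.26 and 4.96 CPM, and in KO/PEG 30.9, 65.4 and 194 CPM. All 13 KO/PEG libraries were above all 11 WT/PEG libraries, in a comparison where 74.7% of all genes passed. That is a share of tests passed, and how many of all genes had ranges apart was not computed, here or below. In KO/NTZ the values were 15.3, 27.6 and 40.6 CPM. Of the 11 KO/NTZ libraries, 8 were below the lowest KO/PEG library, and all 11 were above every WT/PEG library. KO/PEG libraries averaged 88.9 ± 52.96 CPM (SD, n = 13) and KO/NTZ libraries 26.3 ± 8.37 CPM (SD, n = 11), so that NTZ went with a log2 difference of -1.75 (SE 0.28). Against WT/PEG the KO/PEG level differed by 4.73 on the log2 scale (SE 0.33), a 26.5-fold difference, and KO/NTZ was still 2.14 above WT/NTZ on that scale (SE 0.32), where 72.4% of all genes passed.

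Plet1 followed the same order on a narrower scale. Its lowest, median and highest values were 51.8, 64.3 and 82.9 CPM in WT/PEG and 114, 149.4 and 297 CPM in KO/PEG, again without overlap in the comparison where 74.7% of all genes passed. In KO/NTZ they were 62.0, 97.5 and 133 CPM. Of these libraries 9 of 11 were below the lowest KO/PEG library, and the range reached down into that of WT/PEG. On the log2 scale Plet1 in KO/NTZ differed from KO/PEG by -0.87 (SE 0.14) and from WT/NTZ by 0.47 (SE 0.15), while KO/PEG differed from WT/PEG by 1.38 (SE 0.14). The longer of 2 Plet1 transcripts held a median of 98.2% of its counts in KO/PEG and 97.5% in KO/NTZ.

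Itga2 was measured close to the floor. Its lowest, median and highest values were 0.0998, 0.427 and 0.951 CPM in WT/PEG, 0.485, 2.55 and 7.70 CPM in KO/PEG, and 0.212, 1.17 and 1.66 CPM in KO/NTZ. In estimated counts this was between 1 and 16 per WT/PEG library, 3 and 115 per KO/PEG library and 2 and 32 per KO/NTZ library. Of the KO/PEG libraries 11 of 13 were above every WT/PEG library, and 2 of 11 KO/NTZ libraries were below every KO/PEG library. KO/NTZ differed from KO/PEG by -1.36 on the log2 scale (SE 0.35), the least precise value of the 5 genes, and KO/PEG from WT/PEG by 2.38 (SE 0.38).

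Tm4sf5 did not follow this order. Its lowest, median and highest values were 14.4, 19.1 and 29.6 CPM in WT/PEG and 4.93, 16.2 and 33.5 CPM in KO/PEG. The KO/PEG range thus enclosed that of WT/PEG. In KO/NTZ the values were 2.17, 6.22 and 9.87 CPM, and all 11 libraries were below every WT/PEG and every WT/NTZ library, where 72.4% of all genes passed between KO/NTZ and WT/NTZ. Only 3 of these 11 were below the lowest KO/PEG library, number 32 at 4.93 CPM, but all 11 were below the KO/PEG median. Its KO/NTZ level differed by -1.51 from KO/PEG (SE 0.23) and by -1.97 from WT/NTZ (SE 0.24) on the log2 scale. The KO/PEG level differed from WT/PEG by -0.28 (SE 0.21). The transcript that covers the whole coding gene held a median of 84.8% of the Tm4sf5 counts in KO/PEG and 88.3% in KO/NTZ, and a transcript with a retained intron held 15.2% and 11.7%.

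Mal2 was the steadiest of the 5 in WT mice, where its lowest, median and highest values were 158, 174 and 189 CPM in WT/PEG. In KO/PEG they were 119, 207 and 280 CPM, on both sides of the WT/PEG range. In KO/NTZ they were 70.7, 120 and 186 CPM, and 8 of 11 libraries were below every WT/PEG library. The coefficient of variation was 6.32% in WT/PEG, 27.9% in KO/PEG and 28.8% in KO/NTZ. Its KO/NTZ level differed by -0.74 from KO/PEG (SE 0.13) and by -0.45 from WT/NTZ (SE 0.14), and its KO/PEG level by 0.24 from WT/PEG (SE 0.13).

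For each of the 5 genes the 11 KO/NTZ libraries all lay under the median of KO/PEG, and for none were the ranges of both KO groups apart. Over all genes tested, 5.56% passed the test in this comparison, 2.97% higher and 2.6% lower, and nothing is read from the members beside that share because the comparison chose them. The median log2 fold change of the 5 genes was -1.36, beside -0.01 over all genes. Per transcript length, where genes can be compared with each other, Plet1 had the highest mean level in KO/PEG at 139 TPM (a level scaled by transcript length and library), followed by Mal2 at 94.9, Vnn1 at 51.4, Tm4sf5 at 25.7 and Itga2 at 0.575. In WT/PEG the order on the same scale was Mal2 at 66.3, Plet1 at 45.1, Tm4sf5 at 27.8, Vnn1 at 1.55 and Itga2 at 0.0867. In KO/PEG the range of Plet1, 77.5 to 330, overlapped that of Mal2, 40.1 to 176. In WT/PEG the lowest Mal2 library, 56.5, was above the highest Plet1 library, 53.4. Both genes were measured in the same libraries, and whether they differed within each library was not tested.

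Whether NTZ changed these genes in mice with acid could be tested, since the WT libraries took no part in the choice. Itga2 was too low in WT for a useful test, with 1 to 20 estimated counts in the WT/NTZ libraries, and it passed the count filter through the KO libraries. None of the other 4 genes passed in WT/NTZ versus WT/PEG with edgeR, where 1.03% of all genes did, and 1, Vnn1, had an unadjusted p under 0.05. DESeq2 and limma-trend also made 0 calls. Tm4sf5 had a log2 fold change of 0.19 (95% interval from -0.27 to 0.65), Plet1 0.04 (-0.25 to 0.33) and Mal2 -0.05 (-0.33 to 0.23). These intervals rest on a spread estimated over all groups together, KO included. Itga2 had -0.16 with a wide interval from -1.03 to 0.70, given as a description. Taken as the KO value minus the WT value, the effect of NTZ had a difference of -2.59 for Vnn1 (SE 0.43), -1.69 for Tm4sf5 (SE 0.32), -1.20 for Itga2 (SE 0.57), -0.91 for Plet1 (SE 0.20) and -0.69 for Mal2 (SE 0.19). These are given without a test, and 0.96% of all genes passed in that comparison.

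Vnn1 had a log2 fold change of 0.84 in WT/NTZ versus WT/PEG (SE 0.33, edgeR p = 0.0143, adjusted to 0.377), upward where the KO difference was downward. Its lowest, median and highest values in WT/NTZ were 2.76, 4.09 and 16.9 CPM. The highest came from the library with the leukocyte marker sum of 2440 CPM, and the next highest had 9.59 CPM. Without the first of these the log2 fold change was 0.43 (edgeR adjusted p = 1). The part of these leukocyte markers in the value was not tested.

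**Figure D2:**
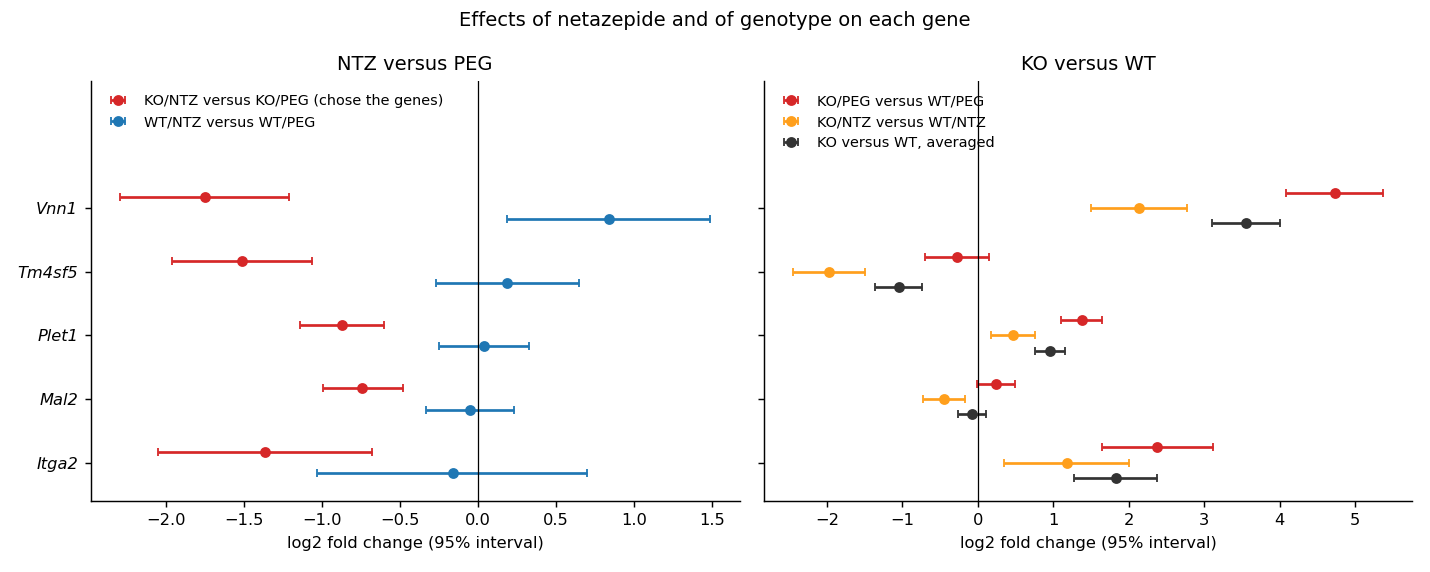
Log2 fold change with its 95% interval for each of the 5 genes, for NTZ versus PEG in KO and in WT mice (left) and for KO versus WT in each treatment and averaged (right). NTZ effects lay between -1.75 and -0.74 in KO mice, a comparison that chose the genes, and between -0.16 and 0.84 in WT mice, where no gene passed.

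The average genotype difference was tested with the KO group means weighted by their 13 and 11 libraries, which would make it independent of the NTZ difference that chose the genes if both KO groups varied alike. They did not vary alike, since the SD of log2 CPM was 0.81 in KO/PEG and 0.48 in KO/NTZ for Vnn1 and 1.03 and 0.73 for Itga2, so part of what chose the genes remains in this test. Of the 4 genes other than Itga2, 3 passed, 2 higher and 1 lower in KO, where 81.6% of all genes passed, so this share is near the background. Vnn1 rose by 3.55 on the log2 scale (SE 0.23, edgeR adjusted p = 2.28e-17) and Plet1 by 0.96 (SE 0.10, edgeR adjusted p = 3.22e-11). Tm4sf5 fell by 1.05 (SE 0.16, edgeR adjusted p = 1.43e-07). That average combined -0.28 in KO/PEG versus WT/PEG with -1.97 in KO/NTZ versus WT/NTZ. It thus came mostly from the KO/NTZ libraries, whose low level chose the gene, and is not read as an effect of genotype alone. Itga2, kept by the filter through the KO libraries in which it is high, had 1.83 (SE 0.28), which is given without a test. Mal2 had -0.08 (95% interval from -0.26 to 0.11, edgeR adjusted p = 0.462), with KO/PEG above and KO/NTZ below WT. With the mitochondrial share of each library in the fit, this value turned to 0.26 (edgeR adjusted p = 0.0256).

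The KO/PEG libraries differed widely among themselves, and their levels were also set out by animal number. KO/PEG libraries took part in the choice of the genes, so the p-values of this split are given as a description. The 4 with the most Vnn1, numbers 45, 46, 31 and 52, had 194, 178, 146 and 112 CPM, all with numbers below 100. Vnn1 averaged 59.1 ± 20.3 CPM (SD, n = 7) in KO/PEG libraries numbered 100 or above and 124 ± 59.5 CPM (SD, n = 6) in those below 100. Itga2 had 1.53 ± 0.833 CPM and 4.32 ± 2.00 CPM in these libraries, and Plet1 144.2 ± 19.5 CPM and 200.5 ± 69.3 CPM. Tm4sf5 (15.5 and 19.1 CPM) and Mal2 (198 and 218 CPM) were closer. None of the 5 genes passed in this comparison with edgeR, where 0.806% of all genes did. The log2 difference between numbers of 100 or above and those below was -1.05 for Vnn1 (SE 0.31, edgeR adjusted p = 0.0719), -1.44 for Itga2 (SE 0.39, edgeR adjusted p = 0.0577) and -0.46 for Plet1 (SE 0.17, edgeR adjusted p = 0.122). All 3 had an unadjusted p under 0.05. DESeq2 passed Vnn1 (adjusted p = 0.0344) and Itga2 (adjusted p = 0.0136). For Itga2 all values of this split rest on low counts, from 3 in the lowest KO/PEG library to 115 in the highest. In the main fit the filter kept Itga2 through the KO libraries in which it is high. Nothing is read from its p-values here. EdgeR passed Vnn1, Itga2 and Plet1 once library 53 was left out (adjusted p = 0.0126, 0.0108 and 0.0251). It passed Vnn1 and Itga2 once library 32 or the library with 94.7 CPM of Vnn1 was left out, and Itga2 alone once library 52 or the library with 44.03 CPM of Vnn1 was. The adjusted p for Vnn1, Itga2 and Plet1 was farther from the threshold with the KO/PEG libraries alone in the fit (0.355, 0.355 and 0.376), with the mitochondrial share as a covariate (0.193, 0.222 and 0.411) and with number 110 left out (0.120, 0.120 and 0.143), all with edgeR. Libraries 32 and 53, with numbers below 100, had 51.6 and 60.7 CPM of Vnn1, within the range of those numbered 100 or above.

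Since 10 of the 11 KO/NTZ libraries have numbers below 100, the NTZ difference was also computed within those numbers, with 6 KO/PEG and 10 KO/NTZ libraries. The log2 fold changes were then larger for all 5 genes, -2.32 for Vnn1 (SE 0.27), -1.99 for Itga2 (SE 0.35), -1.77 for Tm4sf5 (SE 0.35), -1.13 for Plet1 (SE 0.21) and -0.80 for Mal2 (SE 0.21). One library of each KO group carries the number 110. In these, Vnn1 had 67.6 and 40.6 CPM, Plet1 180 and 97.5, Tm4sf5 18.6 and 9.87, Mal2 145 and 105, and Itga2 1.14 and 1.24 CPM. All but Itga2 were lower in the KO/NTZ library of this number.

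**Figure D3:**
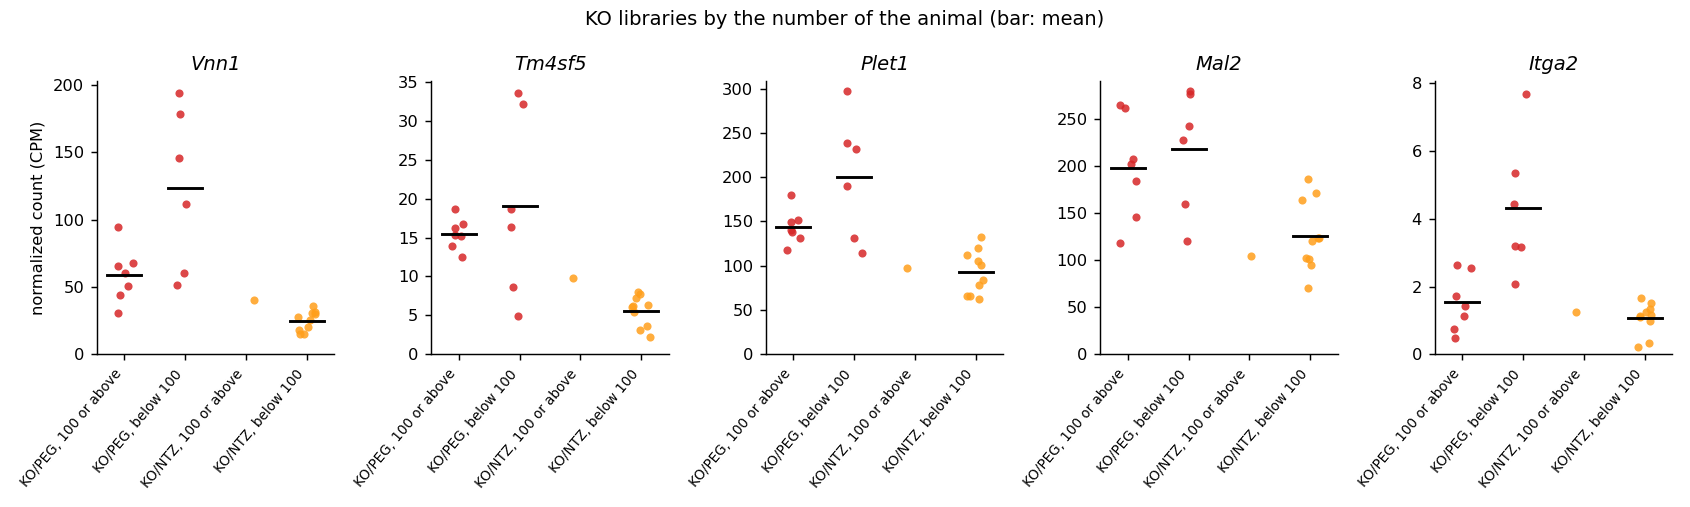
Normalized count (CPM) of the 5 genes in KO libraries split by treatment and by animal number, each point 1 library and each bar the mean. KO/PEG libraries numbered below 100 had a mean of 124 CPM of Vnn1 and those numbered 100 or above 59.1 CPM, while Mal2 had 218 and 198 CPM.

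Among the KO libraries the level of Vnn1 went with those of Plet1 and Itga2. Over the 13 KO/PEG libraries the Pearson correlation of log2 CPM was 0.91 between Vnn1 and Plet1, 0.80 between Vnn1 and Itga2 and 0.70 between Plet1 and Itga2. Tm4sf5 had between -0.04 (with Itga2) and 0.30 (with Vnn1) with the other 4 genes, and Mal2 between 0.18 and 0.51. In the 11 KO/NTZ libraries Vnn1 and Plet1 had 0.80 and Vnn1 and Itga2 0.71, while Plet1 and Itga2 had 0.49, less than Plet1 and Mal2 with 0.60, and over the 20 WT libraries, after the group means were taken out, Vnn1 and Plet1 had -0.14 and Plet1 and Itga2 -0.65. These are descriptions over libraries that share their depth and makeup, and Itga2 in WT rests on few counts. KO/PEG library 46, which had the highest Itga2 (7.70 CPM) and Plet1 (297 CPM), also had the highest mitochondrial share, 14.37%, and the lowest pit marker sum, 16200 CPM. Its part in the correlations was not tested.

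**Figure D4:**
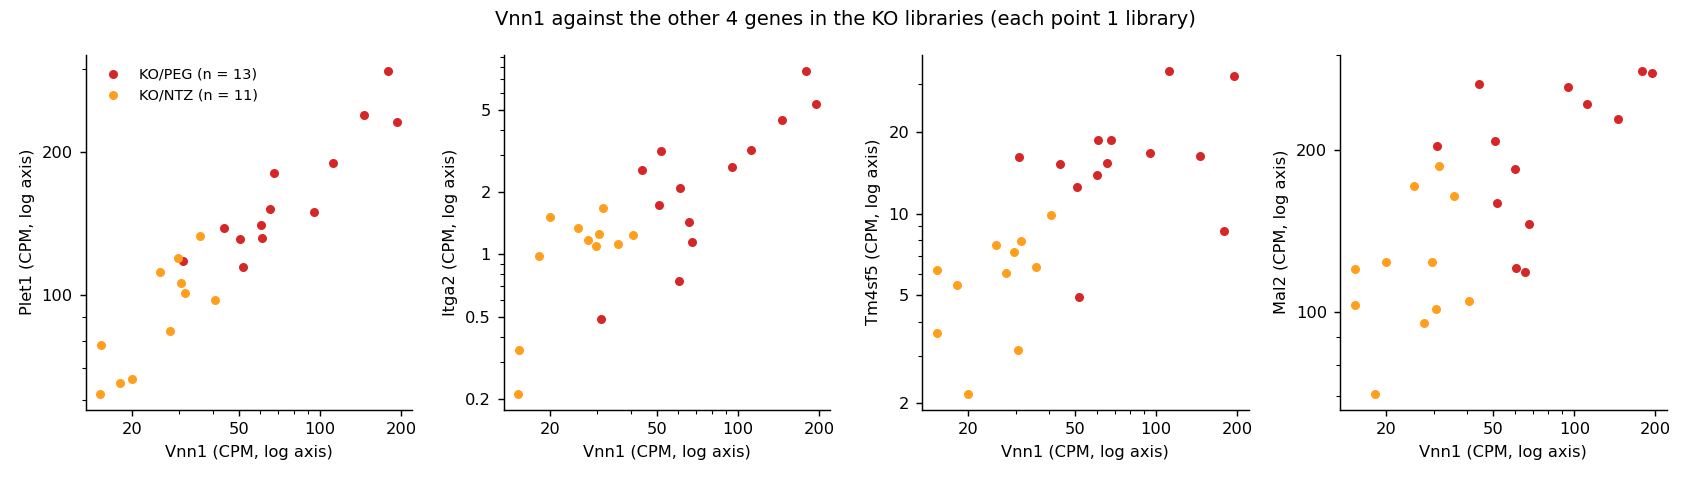
Vnn1 (CPM, log axis) against Plet1, Itga2, Tm4sf5 and Mal2 (CPM, log axis) in the 13 KO/PEG and 11 KO/NTZ libraries, each point 1 library. Plet1 rises with Vnn1 within KO/PEG (Pearson correlation 0.91), whereas Tm4sf5 follows Vnn1 less closely there (0.30).

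The genes most like each member were found by the Pearson correlation of log2 CPM over the 44 libraries after the group means were taken out. For Vnn1 they were Muc13, a membrane mucin (0.77), Gsap (0.73) and Itgax, the integrin of dendritic cells (0.71). For Plet1 they were Mgat4a (0.71), Prom1, which encodes prominin-1 of membrane protrusions (0.68), and Txnrd1 (0.67). Itga2 was most like Fmnl2, a formin (0.74), Fgf2 (0.74) and Adgrg6 (0.73). Tm4sf5 was most like Sdcbp2 (0.76), Gsta4, a glutathione transferase (0.73), and Slc23a3 (0.73). Mal2 was most like Nab1 (0.89), Rap1b, a small GTPase (0.88), and Vps35, a subunit of the retromer that sorts endosomal cargo (0.88).

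The relatives and partners of the 5 genes came from lists by family and role, and they could be tested. These lists were drawn up with earlier results of these data known, which limits the tests. In KO/NTZ versus KO/PEG 11 of the 89 that were tested passed, or 12.4%, beside 5.56% of all genes, and nothing particular to these lists is read from that share. In the vanin and coenzyme A list 0 of 10 passed with edgeR, and the median log2 fold change was 0.06. One of the 10 had an unadjusted p under 0.05, the vitamin transporter gene Slc5a6 (-0.31, edgeR adjusted p = 0.0595), and this gene passed with DESeq2 (adjusted p = 0.0421) and with limma-trend (adjusted p = 0.0412). Vnn3, the other vanin, had at most 0.271 CPM in any library and was not tested. In the L6 family 1 of 2 fell, Tm4sf1 (-0.52, SE 0.16, edgeR adjusted p = 0.0377), from a mean of 10.1 CPM to 6.94 CPM, while Tm4sf4 had 0.25 (edgeR adjusted p = 0.262). The MAL and MARVEL family had 1 of 14 higher, Marveld1 (0.40, edgeR adjusted p = 0.0106), and the closest relatives of Mal2 did not pass, with -0.13 for Mal (edgeR adjusted p = 0.647) and 0.23 for Mall (edgeR adjusted p = 0.455).

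The partner of integrin alpha 2 was far more abundant than Itga2 and did not pass. Itgb1 had a mean of 231 CPM in KO/PEG and 219 CPM in KO/NTZ, a log2 difference of -0.08 (95% interval from -0.24 to 0.09, edgeR adjusted p = 0.558). Another collagen-binding subunit, Itga1, had -0.24 (edgeR adjusted p = 0.399). Of 23 integrin subunits other than Itga2, 3 rose and 0 fell, namely Itga7 (0.61), Itgb3 (0.52) and Itga2b (0.96). Among 15 collagen and laminin chains that integrin alpha 2 can bind or that belong to such matrix, 4 fell and 0 rose, namely Lama1 (-1.13, edgeR adjusted p = 0.00378), Col1a1 (-0.62, edgeR adjusted p = 0.00409), Col4a1 (-0.42, edgeR adjusted p = 0.00774) and Col1a2 (-0.61, edgeR adjusted p = 0.0131). The list median was -0.42, beside -0.01 over all genes. With the libraries of both KO groups alone in the fit, Col1a2 did not pass (edgeR adjusted p = 0.0740), and with KO animals numbered below 100 alone, Col1a1 passed (edgeR adjusted p = 0.0485) and the other 3 chains and the 3 integrins did not.

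Of 9 other genes listed as epithelial proteins with a GPI anchor, 1 fell, Gpihbp1 (-0.72, edgeR adjusted p = 0.0412), which endothelial cells are known to make. Kdr (-0.73, edgeR adjusted p = 0.0100) and Cdh5 (-0.65, edgeR adjusted p = 0.000942), 2 of 4 endothelial markers, fell beside it, but neither passed with KO animals numbered below 100 alone (edgeR adjusted p = 0.237 and 0.0569). The sum of the 4 markers had a median of 198 CPM in KO/PEG (at most 340) and 193 CPM in KO/NTZ (65.0 to 663). Of 16 genes of the apical surface and its polarity machinery, 1 fell, Prom1 (-0.54, SE 0.13, edgeR adjusted p = 0.00603), from a mean of 366 to 252 CPM. Prom1 is also second in likeness to Plet1. With the libraries of both KO groups alone in the fit, neither Prom1 (edgeR adjusted p = 0.0778) nor Tm4sf1 (0.128), Marveld1 (0.0790) or Gpihbp1 (0.131) passed, and with KO animals numbered below 100 alone their log2 fold changes were -0.81, -0.26, 0.37 and -0.35, again without a call. Epcam, a general epithelial surface protein, had a mean of 489 CPM in KO/PEG and 593 CPM in KO/NTZ.

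In the average of KO over WT these lists split in both directions, as did all genes (40.7% higher and 41.0% lower). Of 10 vanin and coenzyme A genes 6 rose and 4 fell, among them Ggt1, which cleaves glutathione outside the cell (2.55), and Ppcs (0.97) of the coenzyme A route, which rose, and the pantothenate kinase Pank3 (-1.20) and the vitamin transporter Slc5a6 (-0.80), which fell. Of 14 MAL and MARVEL genes 7 rose, with Mall at 2.14, and 5 fell, and Mal had 0.07 (edgeR adjusted p = 0.611). Of 23 integrins 11 rose and 8 fell, with Itga1 at -1.06 and Itgb1 at -0.30, both called lower, against the rise of Itga2. Tm4sf4 fell by 0.64 and Tm4sf1 had -0.02 (edgeR adjusted p = 0.891), while the lower average of Tm4sf5 came mostly from KO/NTZ. Prom1 (2.04) and Epcam (1.74) rose.

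**Figure D5:**
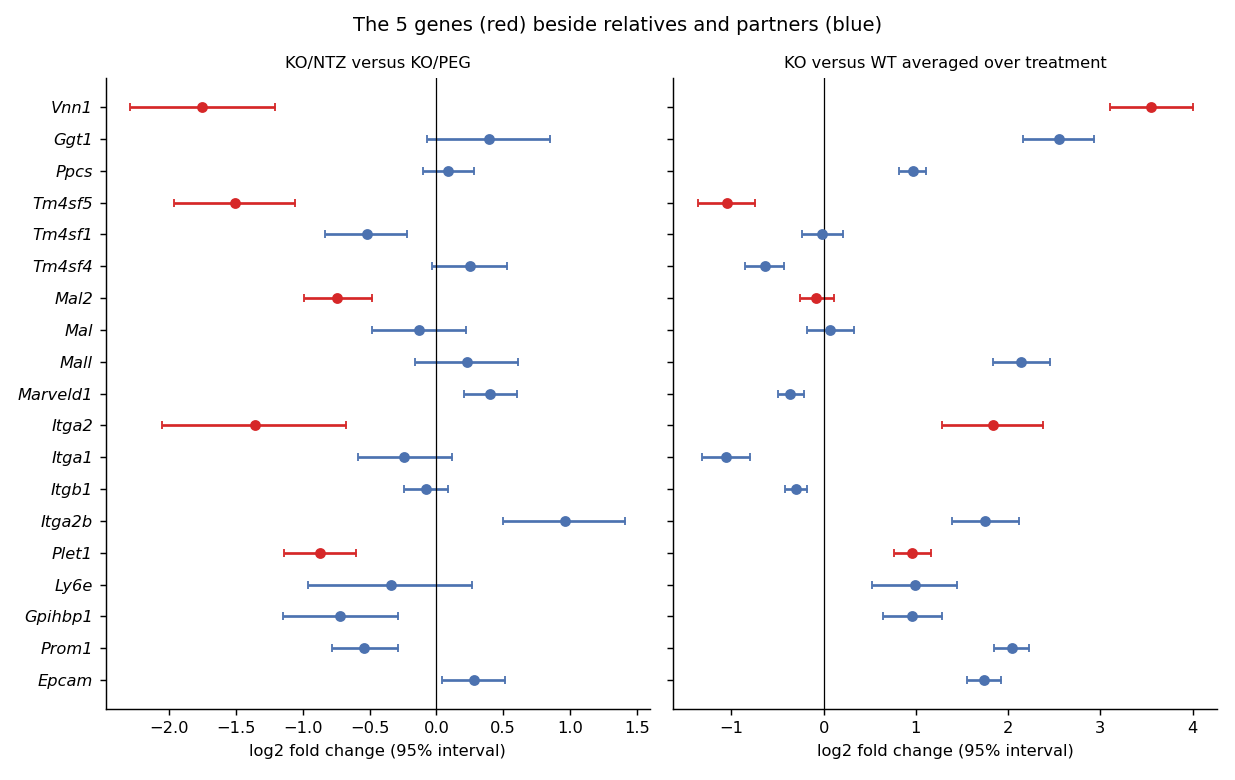
Log2 fold change with its 95% interval in KO/NTZ versus KO/PEG (left) and in KO versus WT averaged over treatment (right) for the 5 genes (red) and for relatives and partners (blue) that are close to them in family or had the smallest p in their list. In KO/NTZ versus KO/PEG, Tm4sf1 (-0.52) and Prom1 (-0.54) lie on the side of the members, and Itgb1 (-0.08) and Mal (-0.13) lie near 0.

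Markers of the cell types in the mucosa were summed in each library to set beside these values. Pit cells line the surface, and their marker sum had a median of 51700 CPM in KO/PEG (16200 to 112000) and 53500 CPM in KO/NTZ (37000 to 108000), with 0 of 9 markers called between them by edgeR, DESeq2 or limma-trend and none at an unadjusted p under 0.05. The mucous neck and SPEM list had 32000 and 39100 CPM, with 0 of 7 called by any of these tools and 1, Aqp5, at an unadjusted edgeR p under 0.05. The chief cell list had 11000 and 11300 CPM, with 0 of 6 called by edgeR and 2 at an unadjusted p under 0.05, Anpep and Pga5, of which DESeq2 called Anpep lower (-0.42, adjusted p = 0.0328). The parietal list had 5240 and 3540 CPM, and 2 of 8 fell, Kcnq1 (-0.57) and Cckbr (-0.98), the gastrin receptor. This list shares Gif with the chief cell list and Cckbr with the ECL list. The paper treats Gif as a chief cell marker in mice and Cckbr as an ECL cell marker, so these lists are not separate. Of the 7 ECL and neuroendocrine genes 5 fell, led by Hdc (-1.97), and 1 rose, Sst (0.89), while the sum of this list had a median of 4870 CPM in KO/PEG and 5470 CPM in KO/NTZ. This sum also holds Sst, which the paper names a D cell marker, and Ghrl, so it does not measure ECL cells alone. The leukocyte sum had a median of 645 CPM in KO/PEG (350 to 1250) and 472 CPM in KO/NTZ (351 to 604), and 1 of 7 tested markers fell, Lyz2 (-0.78, edgeR adjusted p = 0.0313). Squamous forestomach markers had 564 CPM in KO/PEG and 696 CPM in KO/NTZ, with 0 of 11 called by any of the tools and none at an unadjusted p under 0.05. Of 7 tested intestinal markers 1 rose, Apoa4 (0.60, edgeR adjusted p = 0.0368), and of 6 cycling markers 1 rose, Cdk1 (0.59, edgeR adjusted p = 0.0472). With the libraries of both KO groups alone in the fit Lyz2 (edgeR adjusted p = 0.0591), Apoa4 (0.0855) and Cdk1 (0.149) did not pass, and Cdk1 did not pass with limma-trend (adjusted p = 0.0702). The fibroblast and muscle list had 1160 and 1990 CPM, with Acta2 (0.76), Des (0.89) and Ckm (1.11) higher and Col1a1 lower. The part of any of these in the levels of the 5 genes was not tested.

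Reads were divided among transcripts by shared sequence, which bears on Plet1 most. Of its 1901 stretches of 31 bases, 13.6% also occur in transcripts of other genes. The share was 0.268% for Itga2, and 0 for Vnn1, Tm4sf5 and Mal2.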

How the data were processed

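RNA from ventral corpus mucosa was sequenced as stranded mRNA libraries. The authors deposited estimated counts per transcript, not normalized, made with kallisto 0.42.4 on mouse GRCm38 per the labels. Of 94080 transcripts, 92372 were paired with a gene of GENCODE and their estimated counts were summed to 31484 genes and rounded. The 1708 others, between 0.329% and 1.305% of a library, stayed out. Genes with low counts were removed (edgeR's filterByExpr, minimum count 10), which left 14901, or 16499 in the fit split by animal number. Levels are CPM after TMM scaling. Group means of all 44 libraries were fitted in one model with edgeR 4.0.16 (quasi-likelihood, limma 3.58.1, R 4.3.3), and p-values were adjusted over all genes tested with a threshold of 0.05. The fits were tested on simulated data. Sleuth, which the authors used, was not repeated here. Scaling, filter, libraries in the fit, transcripts in place of genes, mitochondrial share as a covariate, DESeq2 1.42.0, limma-trend, and leaving out each library were tried as alternatives. Figures were drawn with matplotlib 3.10.9.

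The 5 members and the gene lists were chosen with earlier results of these data known. Named were the members, close paralogs and partners, up to 4 list genes per comparison with the smallest p that passed, and for each member the 3 genes of highest likeness. Genes of a list that had 0 calls but an unadjusted p under 0.05 were named after their values were seen, as was Epcam. Libraries are separate samples by their labels, which do not say more than an animal number. One number is carried by 2 WT/PEG libraries and the number 110 by 1 library of each KO group, and all were kept as separate libraries. The labels give more KO/PEG libraries than the study describes KO/PEG mice, and whether each is a separate animal is not given in the sources used here, so the spread between libraries may be technical in part. Floors cover counting error only, and intervals of fold changes cover the spread between libraries. One list gene is counted in its list and not reported here by itself.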

Additional observations from a re-analysis of the deposited data

Results flagged for a closer look

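In 3 of the 5 genes 1 of the 9 WT/NTZ libraries lay far from the others of its group, with the gap to its nearest neighbour taken as a share of the group's range and set against Dixon's critical value. Only WT/NTZ was small enough for the critical values used, so WT/PEG, KO/PEG and KO/NTZ were not examined for this. With normally distributed values, chance would flag about 1 in 20 such groups, and 5 were examined, 1 for each gene. For Vnn1 the gap was 0.517 of the range, between 16.9 and 9.59 CPM, and for Itga2 it was 0.513, at 1.22 CPM in the same library. This library had the leukocyte marker sum of 2440 CPM. For Plet1 the gap was 0.534, in library 99 at 97.4 CPM.

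Among the tested relatives and partners of the members, Ly6d and Ly6e had NTZ effects that differed between KO and WT mice by the interaction term in edgeR. The difference on the log2 scale was -2.34 for Ly6d (edgeR adjusted p = 0.0140) and -2.31 for Ly6e (0.0103). Both encode GPI-anchored proteins of the Ly6 family. In WT mice both rose with NTZ, Ly6e by 1.97 (edgeR adjusted p = 0.00193) and Ly6d by 1.69 (0.0130). In KO mice Ly6e had -0.34 and Ly6d -0.65, and neither passed. With the WT libraries alone in the fit neither passed in WT (edgeR adjusted p = 0.132 for both), nor did they with limma-trend (0.169 for Ly6e and 0.185 for Ly6d), while DESeq2 passed both. The sum of squamous forestomach markers, a tissue next to the corpus, ran from 33.7 to 619 CPM in WT/PEG and from 33.8 to 4610 CPM in WT/NTZ, and its part in these values was not tested.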

How the results depend on the processing

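No member passed in WT/NTZ versus WT/PEG in any of 148 alternative fits of single genes. In KO/NTZ versus KO/PEG, where no test was made, the value kept its direction in 170 of 170. It moved in each by less than 1 SD of log2 CPM between KO/PEG libraries. That SD was wide, 0.81 for Vnn1 and 1.03 for Itga2, beside an SE of 0.28 and 0.35. Of these fits 24 for each gene left out only 1 library. The larger values with numbers below 100 counted as unmoved too, so little is read from this count. For KO versus WT 267 fits kept their side of the threshold and the direction of any call. Tm4sf5 had -0.28 with KO/PEG and WT/PEG alone, without a call, Mal2 had -0.45 with KO/NTZ and WT/NTZ alone, with a call, and Mal2 turned to 0.26 with the mitochondrial share as a covariate, and the cause was not tested. In the split of KO/PEG by animal number 99 fits made no call and 11 gained one, 2 of them with DESeq2. These calls are a description, since KO/PEG libraries took part in the choice. Itga2 had too few counts to be tested with WT libraries alone. Leaving out 1 library gave 0 to 3 members called in that split (3 without library 53), 0 to 0 in WT/NTZ versus WT/PEG, 4 to 4 for KO versus WT with Itga2 counted and a median of -1.45 to -1.15 in KO/NTZ versus KO/PEG.

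Calls among the list genes depended more on the fit. In KO/NTZ versus KO/PEG 26 passed, 17 with only the groups compared and 5 with KO animals numbered below 100, and 21 to 42 without 1 library. The most came without the KO/PEG library that had 65.4 CPM of Vnn1. In WT/NTZ versus WT/PEG 6 passed, 0 with only the groups compared or with limma-trend, 21 with only WT animals numbered 100 or above, and 3 to 9 without 1 library (3 without the WT/NTZ library with 4.09 CPM or the WT/PEG library with 1.28 CPM of Vnn1). In the split by animal number 4 passed, 2 without the filter, without the number 110 or with the mitochondrial covariate, 0 with only the groups compared, 9 with DESeq2 and 2 to 27 without 1 library (27 without library 53, 12 without the library with 94.7 CPM of Vnn1, 7 without library 32 or 52, and 2 without library 31, 45, 46 or 110 or the libraries with 30.9, 50.6 or 60.2 CPM). For KO versus WT the lowest count without 1 library was 132 beside 133. Over all genes 5.56% passed in KO/NTZ versus KO/PEG (53.3% of the calls higher), and 267 genes with only the groups compared, 101 (23.8% higher) with numbers below 100 and 1249 (43.4% higher) with DESeq2. In WT/NTZ versus WT/PEG 154 passed, 0 with only the groups compared, 2 with limma-trend and 892 (67% higher) with numbers of 100 or above. In the split 133 passed (57.1% higher), 33 without the filter, 0 with only the groups compared, 3 without the number 110, 8 with the mitochondrial covariate, 688 (44% higher) with DESeq2, 161 (42.2% higher) with DESeq2's size factors and 132 (72.7% higher) with limma-trend. Of the 15 genes named for likeness, 4 were among the first 3 by Spearman's rho and 12 among the first 10, but only 3 were among the first 10 by Pearson correlation without taking out the group means.

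No paired analysis was possible because the groups share fewer than 2 animal numbers. Depth limits Itga2 most, at 1 to 16 estimated counts per WT/PEG library.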
